A study of Anser cygnoides with 9 samples.

Results

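The genes described here code for the machinery that moves membrane carriers through the cell and delivers cargo to the lysosome, measured in cultured goose ovarian granulosa cells. They are the 41 of 1371 listed genes whose symbols begin with the family names ARL, RAB, SEC or ATG followed by a digit, VPS, CHMP, SNX, TRAPPC, TMED, COP followed by A, B, E, G or Z, STX, VAMP, DCTN, GOLGA, ARFG, or AP followed by 1 to 5 and a letter. Granulosa cells surround the oocyte and make steroid and peptide hormones. Sichuan white geese aged 40 weeks gave the cells, which were taken from yellow follicles, both small and large, and each group held 3 libraries. The agonist group received alarelin acetate, a peptide that activates the receptor of gonadotropin-releasing hormone (GnRH). The antagonist group received cetrorelix acetate, a peptide that blocks this receptor. The blank group is labelled as the control. The sources used here give neither doses nor exposure times, nor whether a group's libraries were separate cultures or birds, so the p-values rest on the variation among the libraries at hand, and that variation may be technical.

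Membrane proteins and secreted proteins leave the endoplasmic reticulum in carriers that are tethered at the Golgi by TRAPP complexes. Small GTPases of the Rab and Arl families then mark each compartment and recruit tethers and motors, while syntaxins drive fusion. Sorting nexins and VPS proteins sort cargo at endosomes, CHMP proteins of the ESCRT-III complex cut membrane necks, ATG proteins build autophagosomes, and dynactin couples carriers to the motor dynein. In a secretory cell such as a granulosa cell these routes carry hormone export, receptor uptake and lysosomal turnover.

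The deposited values are TPM, a unit corrected for library size and transcript length, so that levels can be compared between genes. The listed genes summed to 2.88% to 3.26% of what a full set of TPM values adds up to, so the table holds part of the transcriptome, and read numbers are unknown. Of the 22 granulosa markers looked for, the table held FST alone, at 39.8 to 47.8 TPM in agonist, 51.7 to 53.4 TPM in antagonist and 48.0 to 53.7 TPM in blank libraries, and whether its level bears on the results was not tested. No theca, red cell or surface epithelium marker was listed. Of the endothelial, leukocyte and germ cell lists it held CDH5 at 0 to 0.121 TPM, CD4 at 0 to 0.103 TPM and ZP1 at 0.208 to 0.452 TPM, so most of the label could not be checked. The libraries ran on 3 flow cells, which are split unevenly over the groups. The TPM that 1 fragment is worth, relative to blank replicate 3, was estimated from the most frequent ratio among genes under 0.5 TPM. It was 1.03 to 1.08 in agonist, 1.11 to 1.18 in antagonist and 1.00 to 1.21 in blank libraries. Outside the reference library this rested on 12 to 22 of 201 to 215 ratios, so it is rough. The agonist and antagonist ranges do not overlap. As a covariate it therefore cannot be fully told apart from the difference between these groups. Agonist replicate 2 stood apart from its group for several genes below, and the calls of these genes without it are given. Each agonist library ran on a different flow cell, replicate 2 on H77KGDMXX with antagonist replicates 1 and 3 and blank replicate 1. Fits without it hold no agonist library on that flow cell, so group and flow cell cannot be fully told apart in them. Leaving out a library that lies apart can also widen a difference and narrow the spread, so such calls are not separate support.

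All 41 genes were above 0 in every library, except TRAPPC6B, which was listed at 0 in antagonist replicate 1 and blank replicate 2. Their mean levels over the 9 libraries had a median of 5.86 TPM, against 1.62 TPM over all listed genes. By mean level, 3 genes lay at 100 TPM or more, 13 between 10 and 100, 16 between 1 and 10, and 9 under 1 TPM. The 41 genes together made up 3.42% to 3.84% of the listed TPM, and the 3 highest took 65.1% to 68.3% of that. A gene was tested if it reached 1 TPM in at least 3 libraries. This kept 34 of the 41 genes and 832 of all listed genes. The 7 genes not tested were AP1AR, ARL15, ATG10, RAB20, STX8, TRAPPC6B and VPS45. Of the 34, ARL3, RAB3IL1, SNX8, TRAPPC13 and VPS11 did not reach 1 TPM in all 9 libraries, and VPS11 reached it in the 3 antagonist libraries and 1 agonist library only. TRAPPC13 reached it in the 3 antagonist libraries, 1 agonist library and 1 blank library, so the place of both among the tested genes depended on the group in which they were high. No listed gene belonged to the SEC, COP, TMED, GOLGA, ARFG or VAMP families.

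**Figure D1:**
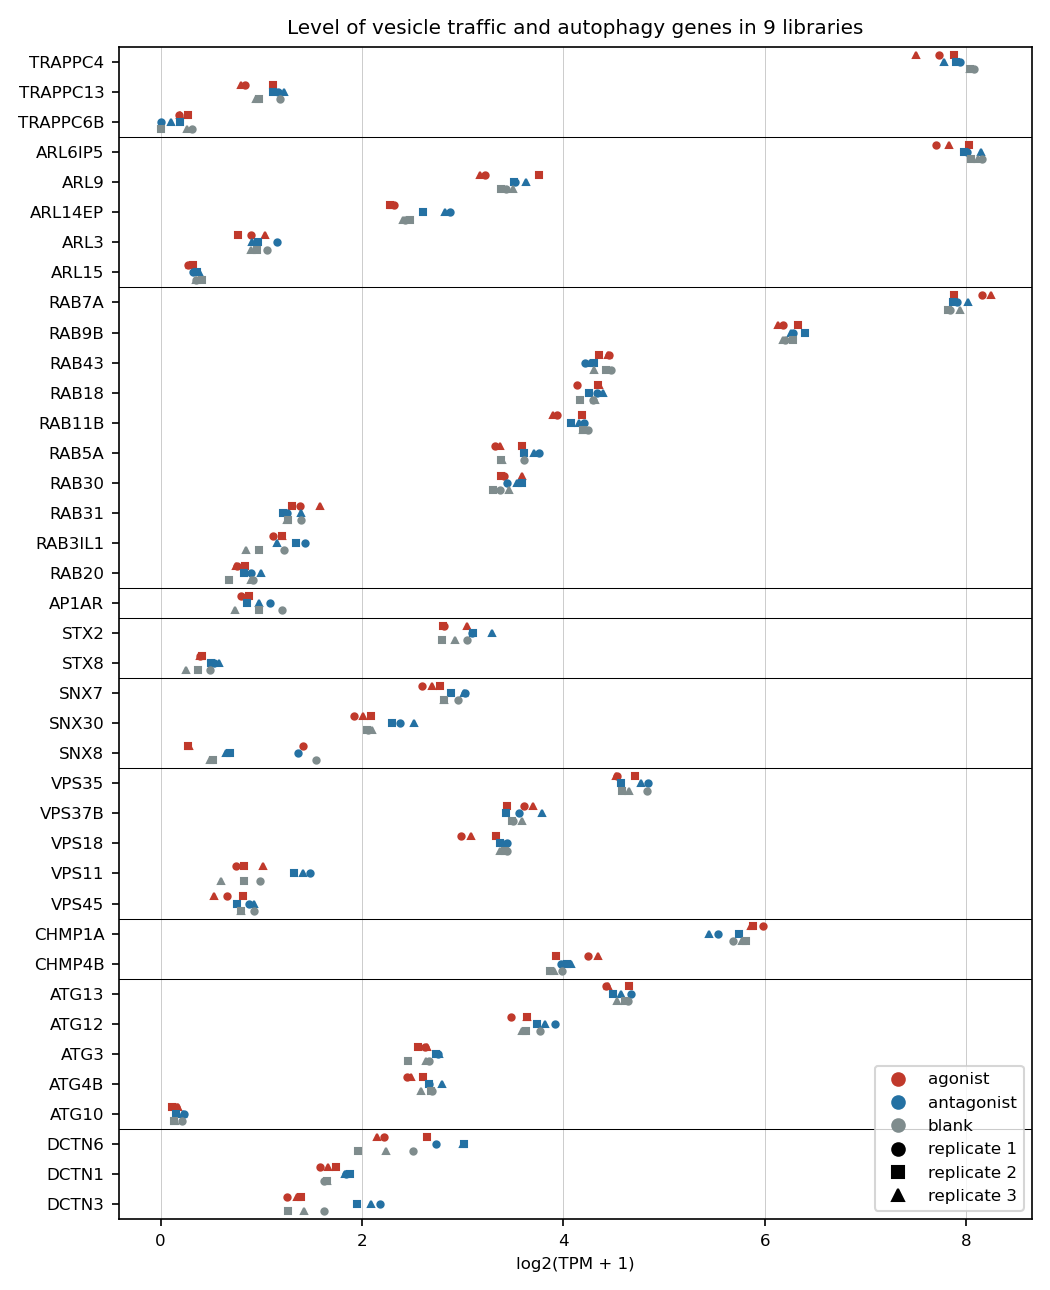
Level of genes of these families as log2(TPM + 1) on the horizontal axis, grouped by family, with 1 point per library. Colour gives the group and shape the replicate number. RAB7A, ARL6IP5 and TRAPPC4 lie above all others, and most genes vary little beside the distance between genes.

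Levels within a family spanned wide ranges. Among the Rab genes, RAB7A, the GTPase of late endosomes and lysosomes, had 284, 234 and 302 TPM in agonist replicates 1, 2 and 3, against 239, 232 and 259 TPM in antagonist replicates and 227, 225 and 245 TPM in blank replicates. Agonist replicates 1 and 3 were the highest libraries and agonist replicate 2 lay among those of the other groups. RAB9B, of a subfamily that works between late endosomes and the Golgi, followed at 69.3 to 83.2 TPM over the 9 libraries. RAB43, RAB18 and RAB11B had means of 19.6, 18.6 and 16.5 TPM, RAB5A of early endosomes 10.6 TPM and RAB30 of the Golgi 9.99 TPM. RAB31, RAB3IL1 and RAB20 were at 1.54, 1.26 and 0.796 TPM. RAB3IL1 is not a GTPase but an exchange factor that activates Rab proteins. Rab proteins have close paralogs, and how reads shared between copies were assigned is not given, so the split between paralogs is uncertain.

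RAB9B, RAB18 and RAB43 had the smallest spread of the 34 tested genes, with standard deviations of 0.08, 0.09 and 0.09 on the log2(TPM + 1) scale over the 9 libraries, where the median was 0.15 for the 34 genes and 0.18 for all tested genes. RAB18, which acts at the endoplasmic reticulum and lipid droplets, had 16.6, 19.4 and 19.4 TPM in agonist libraries, 19.2, 18.1 and 20.1 TPM in antagonist libraries and 18.6, 16.9 and 19.0 TPM in blank libraries. The 3 groups overlapped.

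In the ARL family, ARL6IP5, a membrane protein of the endoplasmic reticulum that binds an Arl GTPase, reached a mean of 257 TPM. ARL9 had a mean of 10.1 TPM. ARL14EP, an effector protein of ARL14 in human cells, was at 4.72 TPM, the cilium GTPase ARL3 at 0.953 TPM and ARL15 at 0.269 TPM. TRAPPC4, a core subunit of the TRAPP tether, reached 236 TPM, while TRAPPC13 and TRAPPC6B were at 1.07 and 0.128 TPM. In the RefSeq annotation (assembly Taihu_goose_T2T_genome), TRAPPC4 overlaps the ribosomal protein gene RPS25, and ARL6IP5 overlaps UBA3 and LMOD3. Whether the authors counted by strand is not given, so reads from a shared stretch may not have been told apart. Overlap was judged from the start and end of each gene, and how much transcript is shared was not examined. Overlaps with a protein-coding gene were annotated for 10 of the 41 genes, among them SNX30 with SLC46A2, SNX7 with PLPPR5 and RAB5A with EFHB and PP2D1.

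The endosomal and autophagy families lay between. VPS35, the core of the retromer that returns cargo from endosomes, had a mean of 24.5 TPM, VPS37B of ESCRT-I 10.9 TPM and VPS18 9.02 TPM. VPS11 was at 1.08 TPM and VPS45 at 0.734 TPM. CHMP1A and CHMP4B were at 53.1 and 15.5 TPM. ATG13, a subunit of the kinase complex that starts autophagy, was the highest ATG gene at 22.6 TPM, with 20.4, 24.2 and 20.7 TPM in agonist libraries, 24.5, 21.6 and 22.7 TPM in antagonist libraries and 24.0, 23.5 and 22.1 TPM in blank libraries. The conjugation genes ATG12, ATG3 and ATG10 were at 12.0, 5.28 and 0.126 TPM, and the protease gene ATG4B at 5.19 TPM. The 3 dynactin genes DCTN6, DCTN1 and DCTN3 were at 4.83, 2.30 and 2.16 TPM, and the endosomal syntaxin STX8 at 0.356 TPM.

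The direct comparison of agonist and antagonist asked how these transcripts compare between cells given the activating and the blocking peptide. The state of the receptor itself was not examined here. The dynactin subunits DCTN3 and DCTN6, the endosome tether subunit VPS11, the sorting nexins SNX30 and SNX7 and the effector ARL14EP were lower with the agonist, and CHMP1A of ESCRT-III was higher. The difference was largest for DCTN3, which averaged 1.53 ± 0.12 TPM in agonist cells and 3.22 ± 0.34 TPM in antagonist cells (SD, n = 3 each). No Rab, ATG, TRAPPC or syntaxin gene passed with the deposited values and all libraries. After median of ratios, upper quartile or quantile scaling RAB43 passed, as did RAB31 after quantile scaling. Without agonist replicate 2, 3 Rab and 2 TRAPPC genes passed with the deposited values. Calls also rose over the whole table in that fit, from 213 to 295 of 832 genes. Of the TRAPPC genes, TRAPPC13 met the floor for testing only with its antagonist libraries. In bulk samples, fewer cells of a type and less RNA per cell cannot be told apart.

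In limma, 7 of the 34 tested genes passed an adjusted p of 0.05, 20.6%, where 25.6% of all 832 genes did. Of the 7, 6 were lower with the agonist, which is 17.6% of the 34, where 23.9% of all genes were. The remaining 1 was higher, 2.94% of the 34, where 1.68% of all genes were. These shares are near those of the whole table. For 17 of the 34 genes every agonist library lay on the same side of every antagonist library, as for 48% of all genes (groups that do not overlap). The median log2 fold change was -0.17 for the 34 genes and -0.21 for all 832 tested genes, so a value near -0.21 is that of a typical tested gene. This median depended on which genes were tested. It was -0.14 with no filter and -0.15 over genes averaging at least 5 TPM, where 23 of the 34 genes had a median of -0.14. With median of ratios scaling, upper quartile scaling and quantile normalization the median of all genes moved to 0.0049, -0.04 and 0.02, and the 6 lower and 1 higher became 2 and 3, 2 and 2, and 1 and 3.

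Dynactin is a large complex that links dynein to its cargo, and DCTN3 and DCTN6 code for small subunits of it. DCTN3 had 1.39, 1.62 and 1.56 TPM in agonist replicates 1, 2 and 3, against 3.54, 2.86 and 3.25 TPM in antagonist replicates, with 2.09, 1.40 and 1.69 TPM in blank replicates. Each antagonist library was above each library of the other groups, and agonist and blank libraries overlapped. Its log2 fold change, agonist against antagonist, was -0.74 ± 0.11 (SE, limma, adjusted p = 0.00576). This call was kept without any single library and under all 3 scalings, with log2 fold changes of -0.44 to -0.59 there, and was lost when fragment worth was a covariate (log2 fold change -0.64, adjusted p = 0.064 in limma).

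DCTN6 had 3.67, 5.27 and 3.45 TPM in agonist libraries, 5.67, 7.09 and 7.03 TPM in antagonist libraries and 4.69, 2.90 and 3.73 TPM in blank libraries. The antagonist libraries were again above all others, but agonist replicate 2 came close to antagonist replicate 1. The log2 fold change of agonist against antagonist was -0.58 ± 0.17 (limma, adjusted p = 0.0325). It passed in 3 of 10 other ways of analysis, failed without agonist replicate 1 or 3 or any antagonist replicate (limma, adjusted p up to 0.114), and did not pass under any of the 3 scalings (log2 fold changes of -0.35 to -0.40). DCTN1, the large subunit that binds dynein and microtubules, had 2.00, 2.35 and 2.17 TPM in agonist libraries, 2.58, 2.69 and 2.57 TPM in antagonist libraries and 2.09, 2.16 and 2.14 TPM in blank libraries. The antagonist libraries did not overlap with the others here either, yet the gene did not pass (log2 fold change -0.19, limma, adjusted p = 0.106), and its value was 0.0029 with median of ratios scaling and 0.12 with quantile normalization. Within a library, the ratio of DCTN3 to DCTN1 was 0.692 to 0.721 with the agonist, 1.06 to 1.37 with the antagonist and 0.649 to 0.999 in blank libraries. DCTN3 was picked by its call, so the ratio follows in part from that choice.

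VPS11 and VPS18 both belong to the core shared by the HOPS and CORVET tethers of endosomes and lysosomes, and their values differed. VPS11 had 0.677, 0.781 and 1.02 TPM in agonist libraries, 1.80, 1.51 and 1.67 TPM in antagonist libraries and 0.985, 0.772 and 0.520 TPM in blank libraries. All antagonist libraries exceeded all others, and without them VPS11 would not have met the floor of 1 TPM in 3 libraries for testing. The log2 fold change of agonist against antagonist was -0.55 ± 0.12 (limma, adjusted p = 0.0156), and the call was lost with quantile normalization (adjusted p = 0.0775 in limma), with fragment worth as a covariate, and without agonist replicate 1, antagonist replicate 1 or antagonist replicate 3 (adjusted p up to 0.0656 in limma). VPS18 had 6.91, 9.08 and 7.46 TPM in agonist libraries, 9.85, 9.36 and 9.54 TPM in antagonist libraries and 9.87, 9.73 and 9.38 TPM in blank libraries, so the agonist libraries were the lowest and the other groups overlapped. It did not pass (log2 fold change -0.27 ± 0.10, limma, adjusted p = 0.0629), but passed without agonist replicate 2 (limma, adjusted p = 0.0131). That library is the highest of its group for VPS18, so the call without it is not separate support. Under the 3 scalings it was -0.03 to -0.08 (limma, adjusted p = 0.465 to 0.835). The ratio of VPS11 to VPS18 was 0.0860 to 0.136 with the agonist, 0.161 to 0.183 with the antagonist and 0.0555 to 0.0998 in blank libraries. VPS11 was tested through its antagonist libraries and picked by its call, so the ratio follows in part from that choice. VPS35 and VPS37B were at log2 fold changes of -0.14 and -0.01. VPS35 had 22.1, 25.1 and 22.0 TPM in agonist libraries, 27.6, 22.8 and 26.4 TPM in antagonist libraries and 27.5, 23.0 and 24.2 TPM in blank libraries, which overlapped.

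SNX7 and SNX30 are related membrane-bending sorting nexins. SNX30 had 2.78, 3.26 and 3.04 TPM in agonist libraries, 4.19, 3.90 and 4.72 TPM in antagonist libraries and 3.18, 3.14 and 3.27 TPM in blank libraries. The antagonist libraries stood above both other groups, which overlapped. The log2 fold change of agonist against antagonist was -0.39 ± 0.09 (limma, adjusted p = 0.0177), and the call was lost without agonist replicate 1, antagonist replicate 1 or antagonist replicate 3 (limma, adjusted p up to 0.0765). SNX7 had 5.03, 5.84 and 5.48 TPM in agonist libraries, 7.14, 6.37 and 7.10 TPM in antagonist libraries and 6.77, 6.04 and 6.03 TPM in blank libraries. Here the agonist libraries were the lowest, while antagonist and blank libraries overlapped. The log2 fold change was -0.29 ± 0.09 (limma, adjusted p = 0.0415), and of the 9 fits without 1 library the call held in those without agonist replicate 2 and without blank replicate 1, with an adjusted p of up to 0.148 in the others. Neither nexin passed under any of the 3 scalings, where SNX30 lay between -0.08 and -0.22 and SNX7 between -0.05 and -0.10.

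ARL14EP had 3.99, 3.85 and 3.91 TPM in agonist libraries, 6.34, 5.11 and 6.07 TPM in antagonist libraries and 4.37, 4.57 and 4.30 TPM in blank libraries, so none of the 3 groups overlapped. Its log2 fold change of agonist against antagonist was -0.47 ± 0.09 (limma, adjusted p = 0.0117). It was between -0.19 and -0.30 and not called under the 3 scalings, and the call was lost without agonist replicate 1 or antagonist replicate 3 (limma, adjusted p up to 0.0517). The other tested ARL genes did not pass with the deposited values and all libraries. ARL6IP5 was at a log2 fold change of -0.19, ARL9 at -0.17 and ARL3 at -0.11.

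CHMP1A and CHMP4B are ESCRT-III subunits, of which CHMP4B forms the main filament and CHMP1A acts with the disassembly machinery. CHMP1A had 62.3, 58.1 and 57.1 TPM in agonist libraries, 45.3, 52.8 and 42.5 TPM in antagonist libraries and 50.6, 55.1 and 53.9 TPM in blank libraries. All agonist libraries were above all others, and antagonist and blank libraries overlapped. CHMP1A rose in agonist cells, with a log2 fold change over antagonist cells of 0.34 ± 0.09 (limma, adjusted p = 0.0294), and it also passed under the 3 scalings, at 0.42 to 0.60. The call was lost without agonist replicate 1, antagonist replicate 1 or antagonist replicate 3, where adjusted p reached 0.126 in limma. CHMP4B had 17.9, 14.3 and 19.3 TPM in agonist libraries, 14.7, 15.4 and 15.8 TPM in antagonist libraries and 14.8, 13.6 and 14.1 TPM in blank libraries. Agonist replicates 1 and 3 were the highest and agonist replicate 2 lay with the blank libraries, and the difference did not pass (log2 fold change 0.14, limma, adjusted p = 0.316). Without agonist replicate 2 it was 0.26 and passed (limma, adjusted p = 0.0362), and under the 3 scalings with all libraries it was 0.32 to 0.40 and did not pass (limma, adjusted p = 0.0657 to 0.14).

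**Figure D2:**
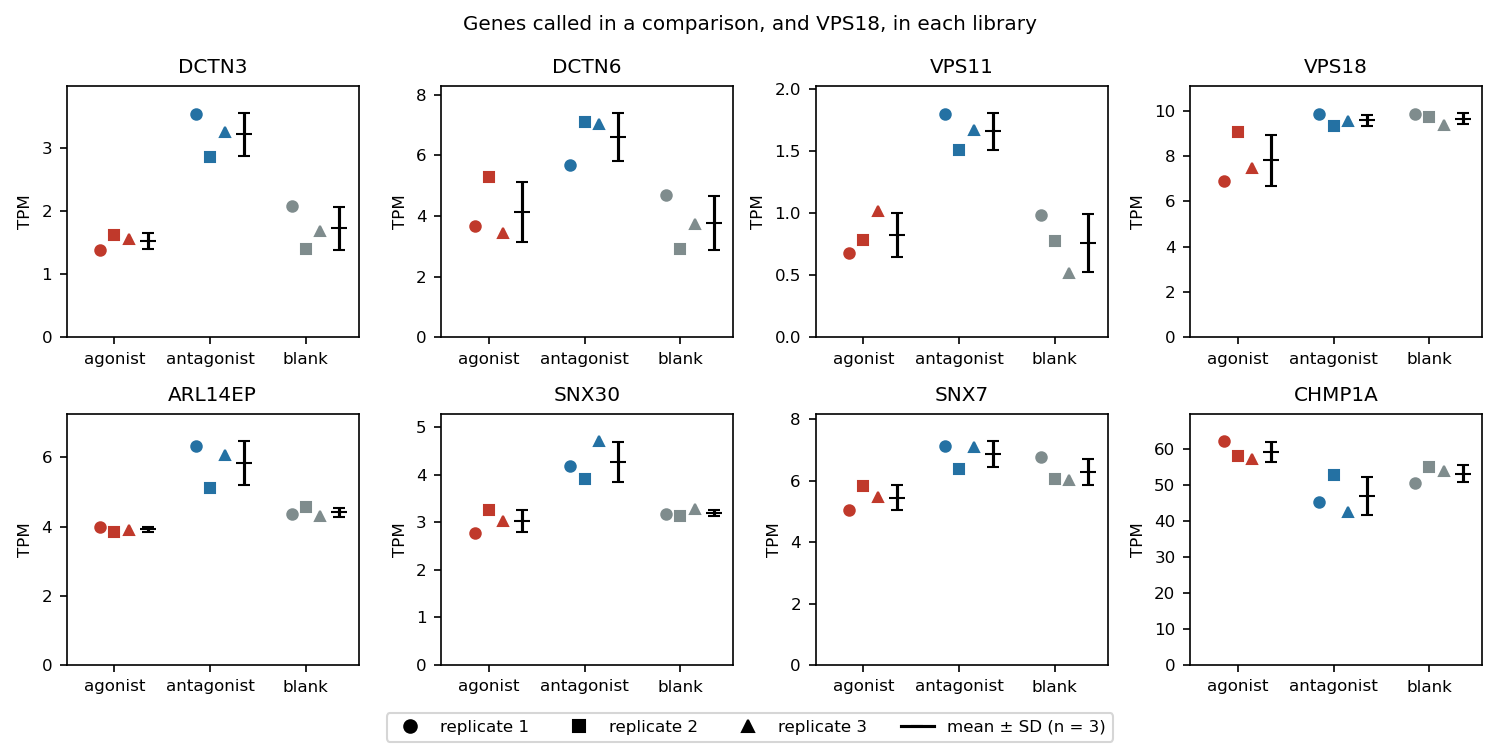
TPM of the 7 genes called in a comparison and of VPS18, with 1 panel per gene and 1 point per library, shaped by replicate number, and the mean ± SD of each group (n = 3). The antagonist libraries stand above all others for DCTN3, DCTN6, VPS11, ARL14EP and SNX30, and the agonist libraries stand above the others for CHMP1A.

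Of the 9 tested Rab genes, 8 had a log2 fold change above the median of all genes, RAB5A being the exception (7 of 9 with quantile normalization). Over all 34 genes, 21 lay above that median and 13 below. Above it were 4 of 6 ARL, 3 of 4 ATG and 2 of 2 CHMP genes, but 1 of 3 dynactin and 0 of 3 nexin genes. Over genes averaging at least 5 TPM that median was -0.15. Of the genes above -0.21, ARL6IP5 (-0.19), ARL9 (-0.17), ATG4B (-0.20), DCTN1 (-0.19) and TRAPPC4 (-0.17) lay below -0.15. DCTN1 averages 2.30 TPM and is not itself among the genes that gave -0.15. Family and level were not separated here. None of the Rab genes passed with the deposited values and all libraries. RAB43, a Rab of the Golgi, had 21.0, 19.4 and 20.8 TPM in agonist libraries, 17.5, 18.8 and 18.3 TPM in antagonist libraries and 21.2, 20.5 and 18.7 TPM in blank libraries. The agonist libraries were above the antagonist libraries and overlapped with blank. The log2 fold change of agonist against antagonist was 0.16 ± 0.08 (limma, adjusted p = 0.155), and it was 0.36 to 0.42 and passed under all 3 scalings. RAB7A was at 0.16 and RAB31 at 0.13, and RAB31 was at 0.39 and passed with quantile normalization (limma, adjusted p = 0.0343). The remaining 6 lay between -0.27 and -0.05, of which RAB18, RAB30 and RAB11B moved above 0 under all 3 scalings.

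All 4 tested ATG genes were below 0, at -0.23 for ATG12, -0.20 for ATG4B, -0.14 for ATG3 and -0.08 for ATG13, and none passed. This direction followed the table: 4, 2 and 3 of the 4 were above 0 with median of ratios, upper quartile and quantile scaling. STX2, a syntaxin of the cell surface, had 6.05, 6.01 and 7.22 TPM in agonist libraries, 7.51, 7.61 and 8.82 TPM in antagonist libraries and 7.27, 5.93 and 6.57 TPM in blank libraries. The agonist and antagonist libraries did not overlap, and STX2 did not pass (log2 fold change -0.27 ± 0.11, limma, adjusted p = 0.0778). Under the 3 scalings it was at -0.03 to -0.09. TRAPPC4 was at -0.17 and TRAPPC13 at -0.25.

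**Figure D3:**
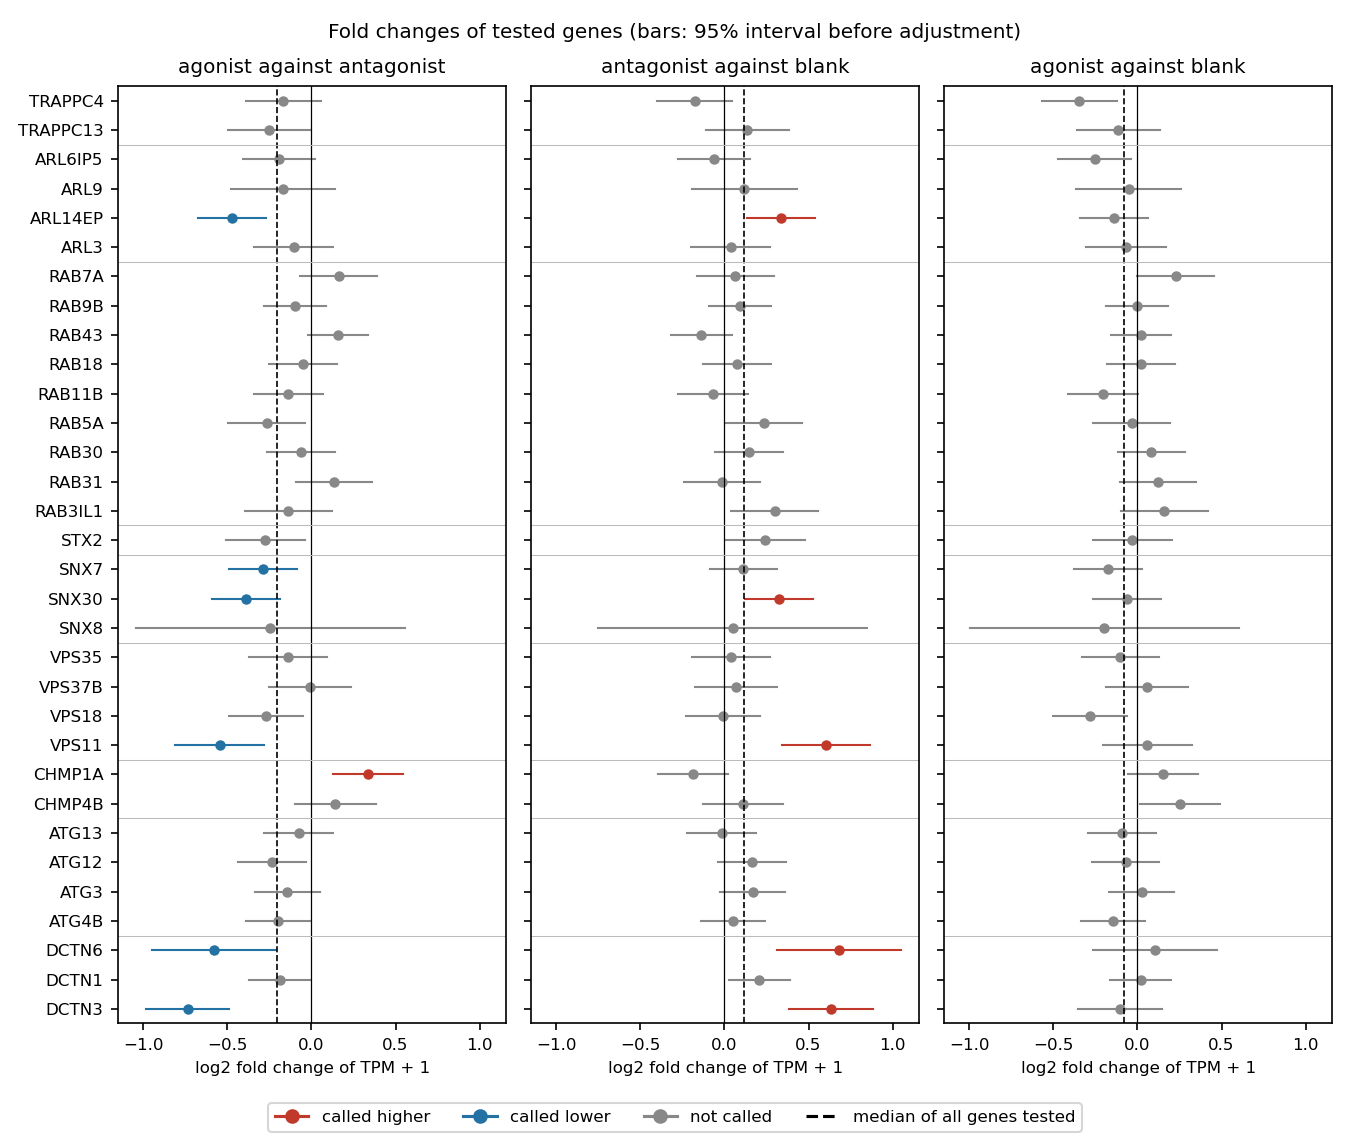
Log2 fold change of TPM + 1 for tested genes in the 3 comparisons, ordered by family, with 95% intervals before adjustment. Colour marks genes with an adjusted p under 0.05, and the dashed line is the median of all 832 genes, at -0.21, 0.12 and -0.08.

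Agonist and antagonist libraries ran together on 2 flow cells. There, the 6 genes called lower were at -0.29 to -0.79 in H75K3DMXX (1 library of each group) and at -0.22 to -0.74 in H77KGDMXX (1 agonist and 2 antagonist libraries), where the median of all genes was -0.23 and -0.15. CHMP1A was at 0.24 and 0.40. The 7 of the 34 genes and 213 of all genes became 1 and 15 without agonist replicate 1, 16 and 295 without agonist replicate 2, 2 and 57 without antagonist replicate 1, and 1 and 17 without antagonist replicate 3. Without agonist replicate 2, the genes called beside the 7 were RAB7A (0.27) and CHMP4B (0.26), higher with the agonist, and VPS18 (-0.37), ARL9 (-0.36), TRAPPC13 (-0.35), RAB5A (-0.35), ARL6IP5 (-0.28), TRAPPC4 (-0.26) and RAB11B (-0.23), lower (limma, adjusted p = 0.0131 to 0.0499). TRAPPC13 met the floor for testing only with its antagonist libraries. That fit holds no agonist library on H77KGDMXX. With fragment worth as a covariate 0 of the 34 and 5 of all genes passed in limma, 6 of the 34 had an unadjusted p under 0.05, and DCTN3, ARL14EP and SNX30 were at -0.64, -0.44 and -0.37.

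Antagonist and blank cells were compared to see which transcripts differed in cells given the blocking peptide. DCTN3, DCTN6, VPS11, ARL14EP and SNX30 were higher with the antagonist, and no gene of these families was called lower. VPS11 averaged 1.66 ± 0.15 TPM with the antagonist and 0.759 ± 0.23 TPM in blank cells, DCTN6 6.60 ± 0.80 and 3.77 ± 0.90 TPM, and ARL14EP 5.84 ± 0.65 and 4.41 ± 0.14 TPM (mean ± SD, n = 3 each). The 5 called genes were 14.7% of the 34 tested, where 11.1% of all genes were called, 10.2% higher and 0.841% lower. VPS11 counts among the 5, although it met the floor for testing only with its antagonist libraries and lay under 1 TPM in every blank library. The libraries of the groups did not overlap for 10 of the 34 genes, where 33.9% of all genes did not. The median log2 fold change was 0.10 for the 34 genes and 0.12 for all genes.

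The dynactin genes DCTN6 and DCTN3 rose by log2 fold changes of antagonist against blank of 0.68 ± 0.17 and 0.63 ± 0.11 (SE, limma, adjusted p = 0.0404 and 0.0202). VPS11, which would not have been tested without its antagonist libraries, rose by 0.60 ± 0.12 (limma, adjusted p = 0.0268). The order of these 3 depended on the pseudocount, since with 0.1 in place of 1 VPS11 was at 1.07, DCTN3 at 0.87 and DCTN6 at 0.81. DCTN3 and VPS11 each passed in 9 of 10 other ways of analysis, failing with flow cell as a covariate, where DCTN3 was at 0.58 and VPS11 at 0.62 (limma, adjusted p = 0.101 and 0.106), and DCTN6 in 5 of 10. DCTN3 failed without antagonist replicate 1 or 3 or blank replicate 2 or 3, and VPS11 and DCTN6 without these or antagonist replicate 2 (limma, adjusted p up to 0.153). ARL14EP and SNX30 passed by a small margin, at 0.33 ± 0.09 and 0.32 ± 0.09 (limma, adjusted p = 0.049 for each), and in none of 10 other ways of analysis, where their values lay between 0.13 and 0.40 (limma, adjusted p = 0.0509 to 0.327). Without 1 library, each held only when agonist replicate 2 or blank replicate 1 was the library left out (limma, adjusted p up to 0.179 otherwise). DCTN1, at 0.21 ± 0.08, did not pass (limma, adjusted p = 0.121), and its value was -0.04 with quantile normalization.

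The exchange factor RAB3IL1 had 1.70, 1.55 and 1.24 TPM in antagonist libraries and 1.34, 0.970 and 0.797 TPM in blank libraries, with 1.17, 1.31 and 1.31 TPM in agonist libraries, so all groups overlapped. It did not pass for antagonist against blank (log2 fold change 0.30, limma, adjusted p = 0.12), except without blank replicate 1 (limma, adjusted p = 0.0242). On the other side of 0, CHMP1A was at -0.18 and RAB43 at -0.14. TRAPPC4 was at -0.18, with 244, 238 and 220 TPM in antagonist libraries and 269, 263 and 262 TPM in blank libraries, which did not overlap, and 212, 235 and 180.0 TPM in agonist libraries. None of these passed (limma, adjusted p of 0.211 or more), and TRAPPC4 moved to 0.0053 with quantile normalization. The remaining Rab and ATG genes lay between -0.07 and 0.23.

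Both groups ran together only on H77KGDMXX, with 2 antagonist libraries and 1 blank library. There DCTN3 was at a log2 difference of 0.51, VPS11 at 0.46, ARL14EP at 0.42, SNX30 at 0.38 and DCTN6 at 0.36, where the median of all genes was 0.04. With flow cell as a covariate 0 of the 34 genes passed in limma, and 8 had an unadjusted p under 0.05. The count of 5 became 0 when antagonist replicate 1, antagonist replicate 3, blank replicate 2 or blank replicate 3 was left out, 1 without antagonist replicate 2, and 3 without agonist replicate 1 or 3.

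**Figure D4:**
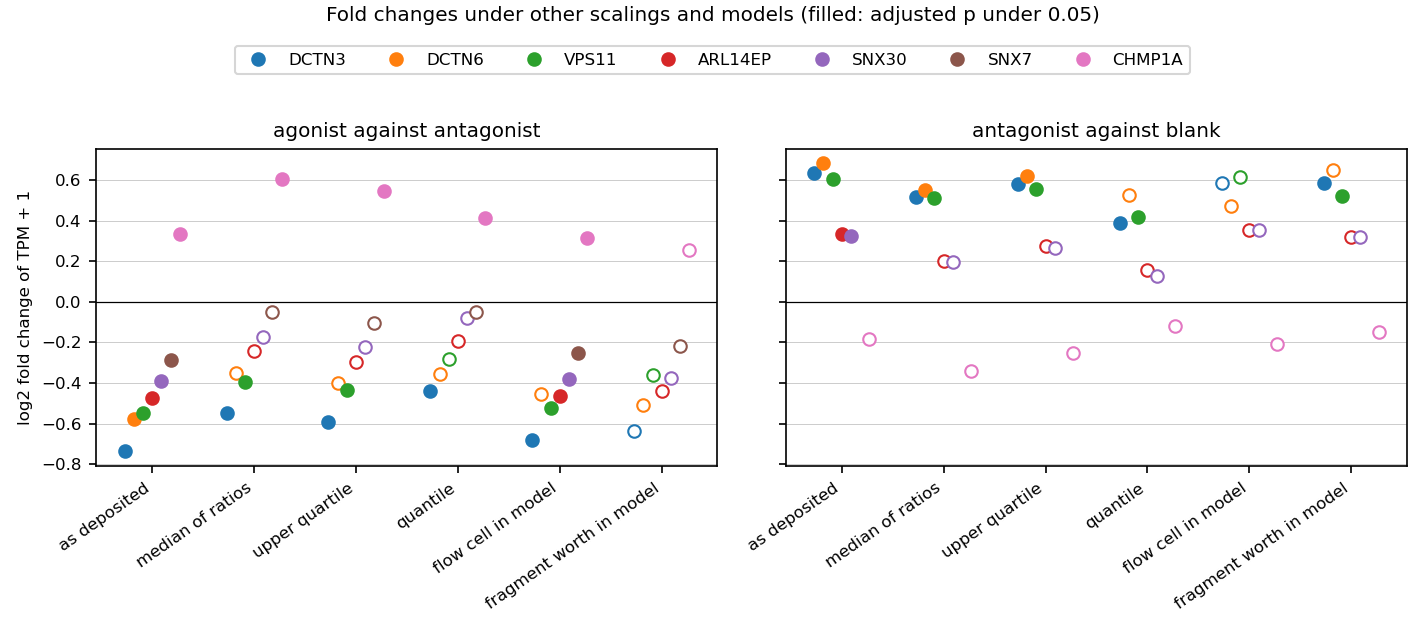
Log2 fold change of the 7 called genes (SNX7 on the left only) under the deposited TPM, 3 other scalings and 2 other models, for agonist against antagonist and antagonist against blank. Filled points passed an adjusted p of 0.05. DCTN3 stays filled in all settings but fragment worth on the left and flow cell on the right, and no plotted gene changes its side of 0.

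Agonist and blank cells were compared to see which transcripts differed in cells given the activating peptide. None of the 34 genes passed in limma, as none of all 832 genes did (0%), and 4 of the 34 had an unadjusted p under 0.05, where 12.3% of all genes did. The 4 were TRAPPC4, VPS18 and ARL6IP5, below 0, and CHMP4B, above 0. TRAPPC4 averaged 209 ± 28 TPM in agonist cells and 264 ± 3.9 TPM in blank cells, VPS18 7.82 ± 1.1 and 9.66 ± 0.25 TPM, and CHMP4B 17.1 ± 2.6 and 14.1 ± 0.62 TPM (mean ± SD, n = 3 each). The libraries did not overlap for 7 of the 34 genes, where 11.9% of all genes did not.

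For TRAPPC4 the log2 fold change was -0.35, with an unadjusted 95% interval from -0.57 to -0.12 (limma, adjusted p = 0.275), VPS18 at -0.28 (interval -0.50 to -0.06, limma, adjusted p = 0.303) and CHMP4B at 0.25 (interval 0.01 to 0.49, limma, adjusted p = 0.364). ARL6IP5 had 207, 261 and 226 TPM in agonist libraries and 285, 264 and 277 TPM in blank libraries, with 257, 251 and 283 TPM in antagonist libraries. The agonist libraries were all below the blank libraries, and the log2 fold change was -0.26 (limma, adjusted p = 0.314). RAB7A and RAB3IL1 were at 0.23 and 0.16. The genes called in the other comparisons were at -0.14 for ARL14EP, -0.10 for DCTN3, -0.06 for SNX30, 0.06 for VPS11, 0.11 for DCTN6, 0.15 for CHMP1A and -0.18 for SNX7. The median half-width of the unadjusted 95% intervals of the 34 genes was 0.22 on the log2 scale, so smaller differences could not be resolved. Larger ones, such as those of TRAPPC4, VPS18 and CHMP4B, did not pass after adjustment either. Without agonist replicate 2, 6 of the 34 genes and 67 of all 832 genes passed in limma. That library lay apart from its group for several of these genes, so the calls without it are not separate support. Among the 6, RAB7A (0.33) and CHMP4B (0.37) were higher, and TRAPPC4 (-0.43), VPS18 (-0.38), ARL6IP5 (-0.34) and RAB11B (-0.30) were lower.

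The 3 comparisons share groups of libraries, so their calls are not independent: DCTN3, DCTN6, VPS11, ARL14EP and SNX30 were called in both comparisons that use the antagonist libraries. Set side by side, their log2 fold changes were -0.39 to -0.74 for agonist against antagonist, 0.32 to 0.68 for antagonist against blank and -0.14 to 0.11 for agonist against blank. These genes were picked by those calls, and each value for agonist against blank is the sum of the values in the other comparisons. The pattern therefore follows in part from the choice of genes.

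Families differed in level and in the size of their values, which is given as a description. For agonist against antagonist the median log2 fold change was -0.58 for the 3 dynactin genes, which is the value of DCTN6, and -0.29 for the 3 sorting nexins. It was -0.21 for the 4 VPS genes and for the 2 TRAPPC genes, -0.18 for the 6 ARL genes and -0.17 for the 4 ATG genes. The 9 Rab genes were at -0.06, the 2 CHMP genes at 0.24 and STX2, the only syntaxin tested, at -0.27. All tested genes had a median of -0.21. Both CHMP genes were above 0, as deposited and under the 3 scalings. The ARL and ATG medians were above 0 under all 3 scalings, as was the Rab median, while the dynactin and nexin medians were below 0 under all of them. Summed over a family, the CHMP genes took 76.3 TPM in agonist, 62.2 TPM in antagonist and 67.4 TPM in blank cells, and the dynactin genes 7.83, 12.4 and 7.62 TPM, as sums of group means.

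SNX8, a sorting nexin of endosomes, varied most of the 34 genes, with a standard deviation of 0.50 on the log2(TPM + 1) scale. It had 1.67, 0.207 and 0.213 TPM in agonist replicates 1, 2 and 3, 1.58, 0.609 and 0.565 TPM in antagonist replicates and 1.91, 0.438 and 0.405 TPM in blank replicates. Replicate 1 was the highest library of each group, and the lowest replicate 1 value was 2.60 times the highest value of the other 6 libraries. SNX8 was tested because these 3 libraries reached 1 TPM. The groups overlapped in all comparisons, and its log2 fold change of agonist against antagonist was -0.25, with an unadjusted 95% interval from -1.04 to 0.55. The replicate 1 libraries ran on H75K3DMXX (agonist) and H77KGDMXX (antagonist and blank), which also held libraries with low SNX8.

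**Figure D5:**
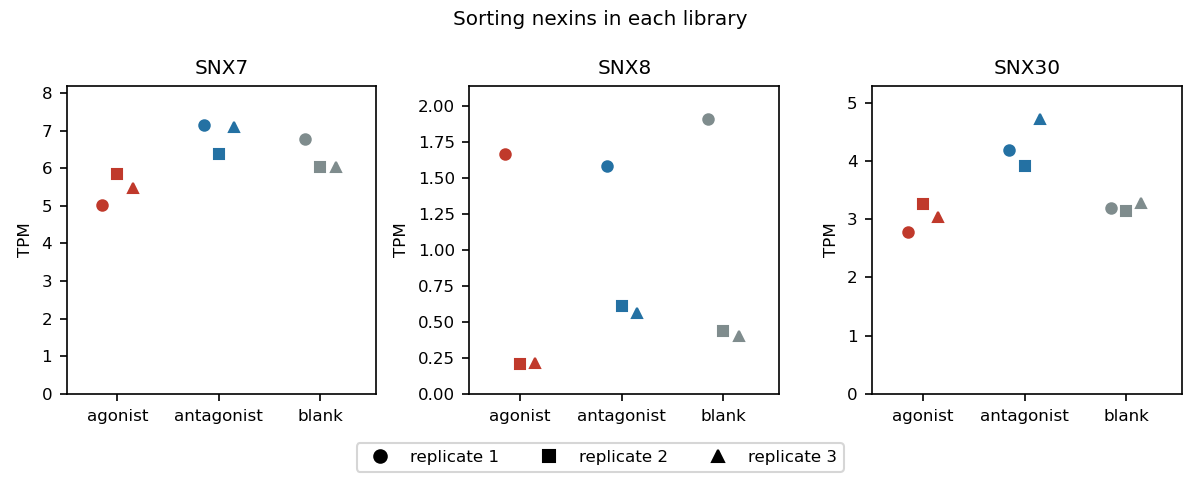
TPM of the sorting nexins SNX7, SNX8 and SNX30 in each library, with shape giving the replicate number. SNX8 is at 1.58 to 1.91 TPM in the 3 replicate 1 libraries and at 0.207 to 0.609 TPM in the other 6, while SNX7 and SNX30 show no such split.

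Of 198 other genes of traffic, lysosome and autophagy looked for, 23 were listed and 19 tested. For agonist against antagonist EPN2, a clathrin adaptor of endocytosis, was the only one called (1 of 19, where 25.6% of all genes were), averaging 13.4 ± 1.6 TPM in agonist cells and 17.8 ± 0.60 TPM in antagonist cells (SD, n = 3 each, log2 fold change -0.39 ± 0.11, limma, adjusted p = 0.0297). In limma none was called for antagonist against blank, where 11.1% of all genes were, or for agonist against blank, where none of all genes was, and 3 and 1 of the 19 had an unadjusted p under 0.05 there. The autophagy genes MAP1LC3B and GABARAPL1, whose proteins coat autophagosomes, were at -0.12 and 0.12 for agonist against antagonist, UVRAG at -0.31 (limma, adjusted p = 0.051), and the mitophagy receptor OPTN at -0.25. ARF4, a GTPase of the Golgi, was at 41.2 ± 3.7 TPM with the agonist, 34.6 ± 0.21 TPM with the antagonist and 42.5 ± 2.9 TPM in blank cells, with log2 fold changes of 0.24 for agonist against antagonist and -0.28 for antagonist against blank (limma, adjusted p = 0.0663 and 0.0628). The median of the 19 genes was -0.13, 0.04 and -0.12 for agonist against antagonist, antagonist against blank and agonist against blank.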

How the data were processed

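The authors deposited 1 table of TPM values for 1371 genes and 9 libraries, which was used as given. Tools named in the submitters' processing notes, with no role stated, are StringTie 1.2.2, TopHat2 2.1.0, CASAVA 1.8.2, Cuffdiff and Cufflinks 2.2.1. Genome build, annotation and use of strand: not given in the sources used here. Libraries were made with the NEBNext Ultra kit from Trizol-extracted RNA, per the labels' protocols.

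Values were taken as log2(TPM + 1), so fold changes understate those of low genes. A gene entered the test if 3 or more libraries reached 1 TPM. limma 3.58.1 in R 4.3.3 fitted group means over all 9 libraries with a variance trend and Benjamini-Hochberg adjustment over all 832 genes within a comparison, called at an adjusted p under 0.05. The script was tested on simulated data. With 3 libraries a group an exact permutation test has a smallest two-sided p of 0.1, so it was not used. Counts cover all 41 genes, of which 2 are not reported here by themselves or drawn in the figures. The members and lists were chosen with earlier results of these data known.

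Named genes were those called, the 3 largest values in each direction and the 2 nearest uncalled genes of each comparison, the highest gene of each family, and the 3 with the largest and smallest spread. EPN2 and the other genes outside the 41 came from a separate list and were chosen after their values were seen. All 41 symbols matched RefSeq, which was used for neighbouring genes only.

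The other ways of analysis were 2 smaller pseudocounts (0.1, 0.5), testing all listed genes or only those averaging 5 TPM, 3 scalings, the 2 groups alone, the replicate number as a block, flow cell or log2 fragment worth as a covariate, and leaving out each library. Depth is unknown, since TPM keeps none.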

Additional observations from a re-analysis of the deposited data

How the results depend on the processing

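Of the 34 genes, 7 were called for agonist against antagonist. The count was 4 with upper quartile scaling, 4 with quantile normalization, 1 with a mean of at least 5 TPM (23 of the 34 tested) and 0 in limma with fragment worth as a covariate (6 at an unadjusted p under 0.05), and 1 to 16 without single libraries. DCTN3, DCTN6, VPS11, ARL14EP and SNX30 average under 5 TPM and were removed by that filter, so its count says nothing about them. Over all genes 213 became 132 with flow cell as a covariate, 5 with fragment worth as a covariate, 86 with a mean of at least 5 TPM, 108, 101 and 52 with median of ratios, upper quartile and quantile scaling, and 15 to 295 without single libraries. Of the 213, 14 were higher and 199 lower. The scalings gave 52 higher and 56 lower, then 35 higher and 66 lower, then 25 higher and 27 lower.

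For antagonist against blank 5 genes were called. The count was 3 with median of ratios scaling, upper quartile scaling, pseudocounts of 0.1 and 0.5 or the 2 groups alone, 2 with quantile normalization, no filter or fragment worth as a covariate, and 0 in limma with flow cell as a covariate or a mean of at least 5 TPM, with 8 and 2 at an unadjusted p under 0.05. The 5 called genes average under 5 TPM and were removed by that filter, so its count says nothing about them. It was 0 to 6 without single libraries. Over all genes 92 became 0 with the flow cell (199 at an unadjusted p under 0.05), 50 with fragment worth as a covariate, 26 with a mean of at least 5 TPM, 17 with no filter, 42 and 61 with pseudocounts of 0.1 and 0.5, 41 with quantile normalization, and 2 to 212 without single libraries. Of the 92, 85 were higher and 7 lower, and this split was 42 and 24 with median of ratios scaling, 62 and 14 with upper quartile scaling and 30 and 11 with quantile normalization.

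For agonist against blank the counts were 0 in all other ways of analysis with the full set of libraries, and 0 to 6 of the 34 genes and 0 to 67 of all genes without single libraries. Of the 34 values for agonist against antagonist, 6 were above 0 as deposited, and 22, 18 and 19 were with median of ratios, upper quartile and quantile scaling, so many uncalled genes changed sign there. Among the genes chosen for their values in antagonist against blank, DCTN1 (-0.040) and TRAPPC4 (0.0053), neither called, changed sign with quantile normalization. The cause of these changes was not tested, apart from the smaller number of genes or libraries where a filter or a left-out library sets it.

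The correlations of same-numbered libraries were -0.117 to 0.216 over 9 pairs, of which 3 were over 0.1. Since not every pair was, the numbers were not taken as pairs. The correlations are not of the levels themselves, in which most genes vary little between libraries beside the distance between genes. With the replicate block agonist against antagonist had 5 of the 34 genes and 166 of all genes called, antagonist against blank had 2 and 27, and agonist against blank had 0 and 0 in limma, with 5 of the 34 at an unadjusted p under 0.05.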

Other observations

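The split of SNX8 by replicate number was searched for in the whole table. Among all 1371 listed genes, SNX8 was the only one whose 3 replicate 1 libraries each had at least 1 TPM and at least 1.5 times the highest of the other 6 libraries. No gene did so for replicate 2 or replicate 3. The search was made after the values of SNX8 were seen.

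Agonist replicate 2 lay apart from the other agonist libraries for several of the 41 genes. ARL9 was at 12.5 TPM there, against 8.33 and 8.04 TPM in agonist replicates 1 and 3, and DCTN6 at 5.27 TPM against 3.67 and 3.45 TPM. RAB7A was lower there, as given above. The listed TPM of this library summed to 31032, against 29842 and 28760 in the other agonist libraries. Agonist replicate 2 was also the only agonist library on H77KGDMXX. For agonist against antagonist, RAB7A was at a log2 difference of 0.29 within H75K3DMXX and -0.09 within H77KGDMXX. CHMP4B was at 0.21 and -0.09 there, and VPS18 at -0.39 and -0.09. Whether the flow cell bears on these values was not tested.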
